A study of Danio rerio with 52 samples.

Results

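The DNA replication and cell cycle genes described here are a list of 49 genes given by name, of which 45 were measured as 1 gene each among 19260 genes tested. The other 4, mcm2, mcm5, e2f1 and mad2l1, had no probe set listed under their symbol alone and were not analysed here. By role the measured genes are 9 of origin licensing, 14 of origin firing and the replication fork, 6 cyclins and kinases of G1 and S phase, 8 of G2 and M phase, 6 of the spindle checkpoint and chromosomes, and 2 inhibitors of cyclin-dependent kinases. Their values come from 52 gene arrays of cells sorted from skins of zebrafish larvae 4 days after fertilization, about 50 skins per sample, each array hybridized with cDNA amplified from a small amount of RNA.

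The groups were sorted by fluorescence. In untreated larvae, 6 samples held non-fluorescent skin cells, 5 held mantle cells positive for mCherry (mCherry+), 4 held mantle cells positive for both mCherry and GFP (mCherry+/GFP+), and 2 held GFP+ hair cells. The hair cells came from the line alpl:mCherry;pou4f3:GFP, in which alpl drives mCherry in mantle cells and pou4f3 drives GFP in hair cells. The double-positive cells came from the line alpl:mCherry;Et20, whose Et20 insertion adds GFP to most mantle cells. Both of these populations were pooled from several sorts, and the sample labels name no line for the other populations. Further larvae were given 5 µM copper sulfate for 1 h to kill hair cells. Their non-fluorescent cells were collected at 1 h (7 samples), 3 h, 5 h and 11 h (4 samples at each) after treatment, and their mCherry+ mantle cells at the same times in 4 samples each. Treated hair cells and treated double-positive cells are not among these groups. Precision is limited by how few arrays each group has.

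Before a cell copies its DNA, the origin recognition complex, Cdc6 and Cdt1 load the Mcm helicase on origins, a step called licensing that geminin blocks. Cyclin D and cyclin E kinases then carry the cell into S phase, where Cdc45 and the GINS complex start the helicase, and polymerases, the sliding clamp PCNA and DNA ligase build the new strands. Cyclin B with Cdk1 starts mitosis, and inhibitors such as p21 (cdkn1a) and p27 (cdkn1bb) hold cells out of the cycle. Hair cells of the lateral line do not divide, and after they are lost new ones arise from dividing support cells in the same organ.

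Levels are log2 signals minus the median of the tested genes of the same array, so 0 is the middle gene of that array and each unit is a factor of 2. Differences are log2 differences ± SE on the same scale. A gene was called higher or lower where limma's adjusted p was below 0.05 in the same direction in 4 fits. These used the deposited values, array medians set equal, quantile normalization, and array medians set equal with a block term. In the copper series the block separates, at 3 h and at 5 h, the first 3 replicates from replicate 4. An earlier adjustment of the values ties these arrays to each other. Among untreated arrays the block sets apart non-fluorescent replicates 5 and 6 together with mCherry+ replicates 1 and 2. It also sets apart non-fluorescent replicate 1 together with mCherry+ replicates 3 and 4. Of the mCherry+ arrays, replicate 5 alone shares a block with the hair cells. In the copper series, all replicates still enter the levels at 3 h and 5 h under the block. The deviations of replicate 4 from its group mean mirror each other between these times. The block can therefore hardly change a difference, and it does not remove the adjustment. With array medians set equal, adding it moved the median of all genes at 3 h against 1 h from 0.02 to 0.05 in mantle cells. In non-fluorescent cells that median moved from 0.08 to 0.11. Fewer genes were called with the block. The arrays were also taken as 3 sets, 17 untreated arrays, 19 treated non-fluorescent arrays and 16 treated mantle arrays. Array means over all probe sets ran from 4.27 to 4.3, 4.45 to 4.48 and 4.29 to 4.37 in that order. By its means, the treated non-fluorescent set stood apart from the other sets. The treated mantle set overlapped the untreated set, but all its arrays, from 4.291 up, lay above the untreated mCherry+ arrays, at 4.269 to 4.286. Set and copper cannot be told apart in any comparison with untreated cells, so times were mainly compared within the treated arrays. There, the arrays tied by the earlier adjustment are all of 3 h and 5 h. A comparison of 3 h or 5 h with 1 h or 11 h therefore cannot tell time from that adjustment. With array medians set equal alone, 7.88% of all genes were lower and 5.42% higher in mantle cells at 3 h against 1 h. At 11 h against 1 h, 0.171% were called. The part of the adjustment in this was not tested. Nothing in the labels ties replicate arrays to separate clutches, and p-values then measure only the spread between these arrays, which may be technical. Where arrays are said to overlap or not, this describes the genes named. The share of all genes without overlap was not counted. Most genes shown by array were picked by their calls, so a lack of overlap adds nothing to a call.

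Hair cells held less of many of these genes than the other untreated populations. Against non-fluorescent cells, 32 of 45 were lower, 1 was higher and 12 were not called, with a median difference of -1.43 over the list against 0.04 over all genes tested. Of all 19260 genes, 15% were called lower and 13.8% higher in that comparison. Against mCherry+ mantle cells, 22 were lower and 0 higher (median -0.92, all genes -0.09), with 14.7% of all genes lower and 12.6% higher. Against mCherry+/GFP+ mantle cells, 29 were lower and 0 higher (median -1.2), with 16.6% of all genes lower and 14.7% higher. The mean level over the 45 genes was -0.22 ± 0.02 in hair cells (SD, n = 2). It was 1.13 ± 0.11 in non-fluorescent cells (n = 6), 0.75 ± 0.14 in mCherry+ mantle cells (n = 5) and 1.03 ± 0.27 in mCherry+/GFP+ mantle cells (n = 4). The hair cell group has 2 arrays, and its spread is taken to be like that of the other groups. The count against mCherry+ mantle cells fell from 22 to 14 without hair cell replicate 1, to 12 without hair cell replicate 2 and to 11 without mCherry+ replicate 5.

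**Figure D1:**
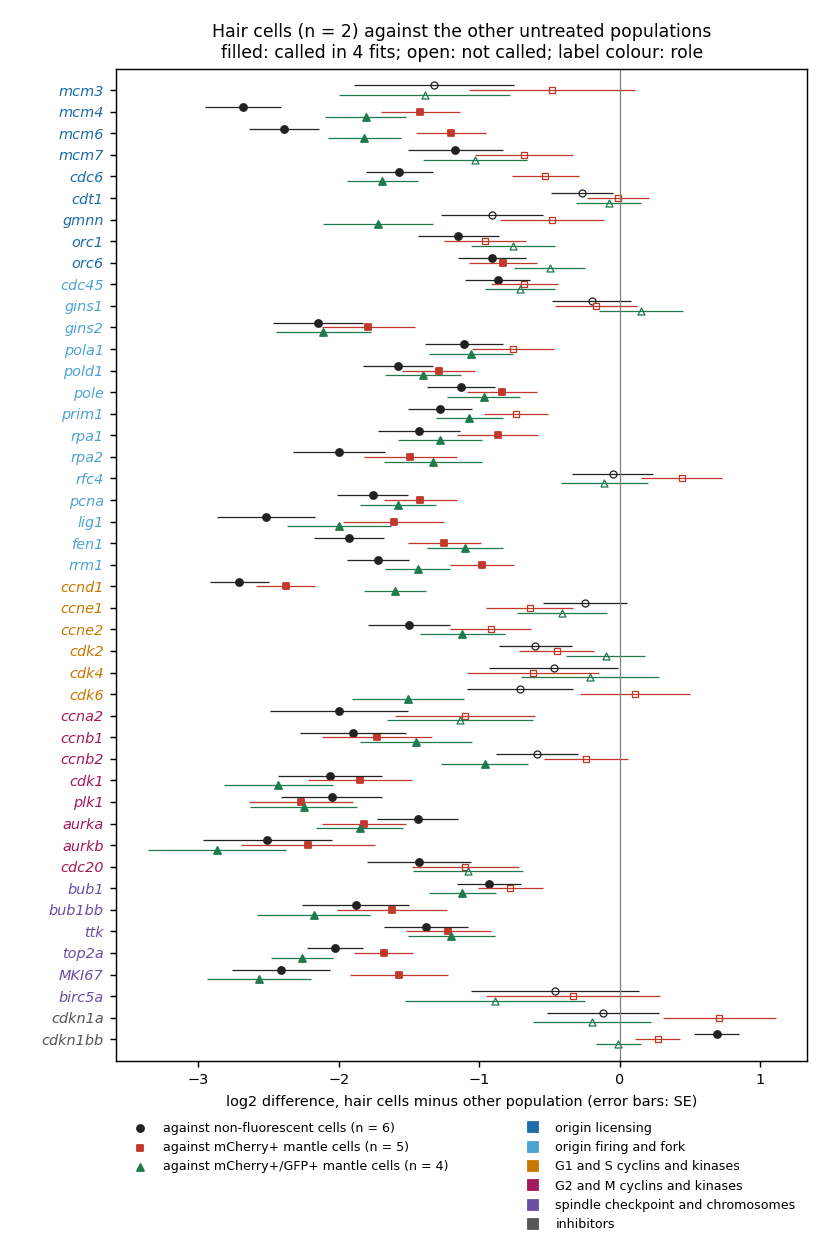
Log2 difference of each of the 45 genes, hair cells (n = 2) minus non-fluorescent cells (circles, n = 6), mCherry+ mantle cells (squares, n = 5) or mCherry+/GFP+ mantle cells (triangles, n = 4), with the SE as error bars. Filled symbols were called in 4 fits, the colour of a gene's name gives its role, and most symbols lie left of 0, from -2.87 for aurkb to 0.71 for cdkn1a.

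Among licensing genes, 6 of 9 were lower in hair cells than in non-fluorescent cells, with a median of -1.17. The helicase subunit gene mcm4 was at -0.69 and -0.68 in the 2 hair cell arrays. In the 6 non-fluorescent arrays it ran from 1.66 through a median of 1.85 to 2.85. Both hair cell arrays lay far below the lowest non-fluorescent array, and the difference was -2.68 ± 0.27 (adjusted p = 2.16e-07). Its partner mcm6 differed by -2.39 ± 0.25 and mcm7 by -1.17 ± 0.34. The loader gene cdc6 was lower by -1.57 ± 0.24, and the origin recognition genes orc1 and orc6 by -1.15 ± 0.29 and -0.91 ± 0.24. The signal of orc6 was low, with a mean of 3.75 over all arrays. With dim genes left out, 31 of the measured genes were lower than in non-fluorescent cells in place of 32. The 3 licensing genes without a call were mcm3 (-1.32 ± 0.57), the loader gene cdt1 (-0.27 ± 0.22) and gmnn, which encodes geminin (-0.91 ± 0.36). For cdt1 the hair cell arrays, at -0.41 and -0.62, lay inside the range of the other 3 populations.

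Against the mantle populations the licensing genes split. The difference for mcm4 was -1.42 ± 0.28 against mCherry+ and -1.81 ± 0.29 against mCherry+/GFP+ mantle cells, and that for mcm6 was -1.2 ± 0.25 and -1.82 ± 0.26. For cdc6 the call was made against mCherry+/GFP+ cells (-1.69 ± 0.25) and not against mCherry+ cells (-0.53 ± 0.24, adjusted p = 0.106). The same held for gmnn, at -1.72 ± 0.39 and -0.48 ± 0.37. The gmnn arrays of mCherry+/GFP+ cells were at 1.75, 2.74, 0.82 and 0.63, and those of hair cells at -0.16 and -0.30.

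The largest role by number, origin firing and the fork, had 12 of 14 genes lower in hair cells than in non-fluorescent cells, with a median of -1.51. DNA ligase 1, which seals the fragments of the lagging strand, showed the widest gap of this role. Its gene lig1 was at -0.86 and -0.83 in hair cells and ran from 1.30 through 1.64 to 2.15 in non-fluorescent cells (-2.52 ± 0.35, adjusted p = 1.34e-05). Beside it stood gins2, a subunit of the GINS complex (-2.15 ± 0.32), rpa2, which coats single strands (-2.0 ± 0.33), and fen1, the flap nuclease (-1.93 ± 0.25). The sliding clamp gene pcna was at 2.45 and 2.52 in hair cells and ran from 4.06 through 4.23 to 4.45 in non-fluorescent cells, a difference of -1.76 ± 0.25 (adjusted p = 2.16e-05). The ribonucleotide reductase gene rrm1, needed to make DNA precursors, differed by -1.72 ± 0.22. The polymerase genes pola1, pold1 and pole and the primase gene prim1 were all lower, from -1.11 for pola1 to -1.58 for pold1. The exceptions were gins1 (-0.20 ± 0.28) and the clamp loader gene rfc4 (-0.05 ± 0.29), for which the hair cell arrays overlapped those of each other population.

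Of the 6 G1 and S phase cyclins and kinases, 2 were lower than in non-fluorescent cells, the cyclin genes ccnd1 and ccne2. The D cyclin gene ccnd1 showed the widest gap of all 45 genes in this comparison. It was at 1.5 and 2.0 in hair cells and ran from 4.27 through 4.47 to 4.70 in non-fluorescent cells (-2.71 ± 0.21, adjusted p = 4.48e-09). In mCherry+ mantle cells it was at 4.12, 4.07, 4.20, 3.90 and 4.34 (hair cells -2.38 ± 0.21), and in mCherry+/GFP+ cells at 3.80, 3.45, 3.07 and 3.07 (-1.60 ± 0.22). All 4 populations were thus separated except that some mCherry+ and non-fluorescent arrays overlapped. The kinase genes of this phase were not called against non-fluorescent cells, with cdk2 at -0.60 ± 0.26, cdk4 at -0.47 ± 0.46 and cdk6 at -0.71 ± 0.38. Neither was ccne1 (-0.25 ± 0.30), while ccne2 was lower by -1.5 ± 0.29.

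Of the 8 G2 and M phase genes, 7 were lower than in non-fluorescent cells, with a median of -1.95. The Aurora B kinase gene aurkb was at -0.93 and -0.99 in hair cells and ran from 1.12 through 1.49 to 2.21 in non-fluorescent cells (-2.51 ± 0.46). In mCherry+ mantle cells aurkb was at 0.97, 0.85, 1.31, 1.30 and 1.87 (hair cells -2.22 ± 0.48). In mCherry+/GFP+ cells it was at 2.92, 0.94, 2.87 and 0.92, a pair of high and a pair of low arrays (-2.87 ± 0.49). The kinase gene cdk1, which drives entry into mitosis, was at -0.87 and -1.07 in hair cells. It ran from 0.30 through 1.18 to 1.57 in non-fluorescent cells (-2.06 ± 0.37). In mCherry+ mantle cells it was at 0.65, 0.18, 1.41, 0.67 and 1.48 (-1.85 ± 0.37), and in mCherry+/GFP+ cells at 1.87, 1.68, 1.61 and 0.66 (-2.43 ± 0.39). Every hair cell array thus lay below every array of the other untreated populations for aurkb and cdk1.

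The Polo kinase gene plk1 was at 0.19 and -0.14 in hair cells, against 1.78, 1.96, 2.82, 2.30 and 2.63 in mCherry+ mantle cells (-2.27 ± 0.37). Its difference from non-fluorescent cells was -2.05 ± 0.36. The cyclin genes ccna2 and ccnb1 were lower than in non-fluorescent cells by -2.0 ± 0.49 and -1.90 ± 0.38, aurka by -1.44 ± 0.29, and cdc20, an activator of the ligase that ends mitosis, by -1.43 ± 0.37. A second probe set, listed under both ccna2 and CCNA2, was not used. The remaining G2 and M gene, ccnb2, was called against mCherry+/GFP+ cells (-0.96 ± 0.31) and not against non-fluorescent cells (-0.59 ± 0.29).

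Of the 6 spindle checkpoint and chromosome genes, 5 were lower than in non-fluorescent cells, with a median of -1.63. The topoisomerase gene top2a, which untangles sister chromosomes, was at -0.48 and -0.47 in hair cells and ran from 1.24 through 1.51 to 1.96 in non-fluorescent cells (-2.03 ± 0.20, adjusted p = 2.21e-07). In mCherry+/GFP+ cells it was at 2.03, 1.81, 1.75 and 1.55 (-2.26 ± 0.22). The proliferation marker MKI67 was at 0.53 and 0.58 in hair cells and ran from 2.25 through 3.21 to 3.40 in non-fluorescent cells (-2.41 ± 0.35). In mCherry+/GFP+ cells MKI67 was at 3.55, 3.23, 3.47 and 2.25 (-2.57 ± 0.37). Both genes separated the 2 hair cell arrays from all other untreated arrays. The checkpoint kinase genes bub1, bub1bb and ttk differed from non-fluorescent cells by -0.93 ± 0.23, -1.88 ± 0.38 and -1.38 ± 0.30. The survivin gene birc5a, at -0.46 ± 0.60, was not called in any comparison of untreated populations.

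The single gene higher in hair cells was cdkn1bb, a zebrafish gene for the p27 type of inhibitor. It was at 5.64 and 5.75 in hair cells and ran from 4.88 through 4.94 to 5.20 in non-fluorescent cells (0.69 ± 0.16). In mCherry+/GFP+ cells it was at 5.79, 5.84, 5.76 and 5.42, as high as in hair cells (difference -0.01 ± 0.16), and these cells were also higher than non-fluorescent cells by 0.70 ± 0.12. In mCherry+ mantle cells it was at 5.41, 5.38, 5.32, 5.49 and 5.50. These 5 arrays lay above all non-fluorescent and below both hair cell arrays, but the difference from non-fluorescent cells (0.42 ± 0.12) was not called in every fit. For cdkn1bb the call of hair cells against non-fluorescent cells was lost without hair cell replicate 1 or replicate 2. It was also lost at an adjusted p below 0.01 in limma. The p21 gene cdkn1a showed no call in any comparison of untreated populations, with -0.12 ± 0.40 for hair cells against non-fluorescent cells.

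Genes of the same processes outside the list were counted in hair cells against non-fluorescent cells as well. Of 44 other replication genes, 23 were lower and 1 higher, among them dnmt1, the maintenance methyltransferase (-2.25 ± 0.22), tyms, which makes thymidylate (-2.21 ± 0.52), and slbp, which binds histone mRNAs (-2.09 ± 0.38). The higher one was timeless, of the complex that protects the fork (0.73 ± 0.18). Of 55 other mitosis genes, 31 were lower and 1 higher, with kif2c, a microtubule motor, at -3.11 ± 0.56, the cohesion gene cdca5 at -2.55 ± 0.42 and the spindle gene nusap1 at -2.52 ± 0.41. The higher one was fzr1b (1.93 ± 0.30), for the Cdh1 type of activator of the anaphase-promoting complex. Medians of the lists were -0.88 and -1.03.

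Among 31 other genes of G1 and G1/S control, 11 were lower and 3 higher in hair cells than in non-fluorescent cells. The kinase subunit gene cks1b (-2.19 ± 0.52), the phosphatase gene cdc25b (-1.96 ± 0.40) and tfdp2, a partner of E2F factors (-1.78 ± 0.40), were the lowest. The higher ones were cdc25d (3.43 ± 0.22), the retinoblastoma family gene rbl2 (1.32 ± 0.21) and e2f5, an E2F family gene (1.02 ± 0.24). Of 22 p53 and checkpoint genes, 9 were lower and 2 higher, with phlda3 (-2.21 ± 0.33), gadd45ab (-1.92 ± 0.24) and gadd45bb (-1.76 ± 0.28) lower and gadd45ga (1.82 ± 0.52) and the apoptosis gene bbc3 (1.75 ± 0.32) higher. Higher cdc25d and lower kif2c were also called against both mantle populations, with cdc25d at 3.03 ± 0.23 and 3.04 ± 0.24 and kif2c at -3.13 ± 0.57 and -4.53 ± 0.59 against mCherry+ and mCherry+/GFP+ cells.

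Marker genes describe the sorted cells, and markers of other cell types differed as well. The markers were chosen with earlier results of these data known, so they are no independent check of the label. All 10 hair cell markers were higher in hair cells than in non-fluorescent cells, with a mean level of 4.68 to 4.74 against -0.80 to -0.41. Of 8 pigment cell markers 7 were also higher and 1 lower, with a mean of 2.64 to 2.75 in hair cells against -0.66 to -0.33 in non-fluorescent cells. All 8 connective tissue markers were lower, at -0.69 to -0.61 against 3.78 to 4.14, and 5 of 7 leukocyte markers were lower, at -1.36 to -1.35 against -0.17 to 2.35. Of 8 keratinocyte markers 5 were lower than in non-fluorescent cells, but 4 were higher and 1 lower than in mCherry+ mantle cells. The part of these cell types in the cell cycle results was not tested. In sorted bulk samples, fewer cells of a type and less RNA per cell cannot be told apart.

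Mantle cells stood nearer to non-fluorescent cells. In mCherry+ mantle cells, 8 of 45 genes were lower and 0 higher than in non-fluorescent cells, with a median of -0.34 against 0.17 for all genes, of which 10.5% were called lower and 14.6% higher. With the deposited values the median of all genes was 0.01, and 46.8% of the calls were higher, against 65.6% with array medians set equal. The lower genes belong to licensing and the fork, apart from MKI67. For mcm4 the mCherry+ arrays were at 1.09, 0.61, 0.97, 0.85 and 0.15, below all 6 non-fluorescent arrays given above (-1.26 ± 0.20). For mcm6 they were at 1.24, 1.24, 1.80, 1.52 and 1.21, against 2.15 through 2.67 to 3.11 in non-fluorescent cells (-1.19 ± 0.18). For cdc6 they were at 0.01, -0.05, 0.06, -0.12 and -0.32, against 0.41 through 0.94 to 1.56 (-1.04 ± 0.18). These 3 licensing genes, picked by their calls, did not overlap between the populations, and how many of all genes did not overlap was not counted. For lig1 they were at 0.24, 0.39, 0.76, 1.13 and 1.29, and the highest of them lay just under the lowest non-fluorescent array (-0.91 ± 0.26).

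The other lower genes were MKI67 (-0.84 ± 0.26), rrm1 (-0.74 ± 0.16), fen1 (-0.67 ± 0.19) and prim1 (-0.54 ± 0.17). No gene of the G1 and S or G2 and M roles was called, with cdk1 at -0.22 ± 0.27, ccnb1 at -0.17 ± 0.28 and aurka at 0.38 ± 0.22. Without non-fluorescent replicate 5 or 6 the count was 5, and without mCherry+ replicate 2 it was 4. Keratinocyte markers were also lower in mCherry+ mantle cells, 6 of 8, with a mean of 1.07 to 2.03 against 4.20 to 5.46 in non-fluorescent cells, as were 5 of 5 muscle markers, at -0.22 to 0.44 against 1.09 to 2.18. Of 4 red blood cell markers 3 were lower, at -1.02 to 0.73 against 1.23 to 4.10, and 1 of 7 leukocyte markers was lower, at -1.04 to 0.21 against -0.17 to 2.35. Connective tissue markers went the other way, with a mean of 4.36 to 4.72 against 3.78 to 4.14 in non-fluorescent cells. The part of these cell types in the result was not tested.

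In mCherry+/GFP+ mantle cells, 3 genes were lower and 1 higher than in non-fluorescent cells (median -0.16, all genes 0.06), where 9.82% of all genes were called lower and 11.7% higher. As shares of the 45 genes both counts lie below these, so the calls describe single genes and not the list. The lower genes were ccnd1 (-1.11 ± 0.16), mcm4 (-0.88 ± 0.21) and fen1 (-0.82 ± 0.20), and the higher one was cdkn1bb. The mcm4 arrays of mCherry+/GFP+ cells were at 1.01, 1.09, 1.12 and 1.25. For fen1 they were at 1.44, 0.35, 1.41 and 0.97, against 1.51 through 1.92 to 2.09 in non-fluorescent cells. All 4 genes separated the arrays of these populations, but they were picked by their calls, so this adds nothing to the calls. Without mCherry+/GFP+ replicate 1 the count rose from 4 to 7. Markers of other skin cells were lower as well. They were 4 of 8 keratinocyte markers, at a mean of 2.83 to 3.49 against 4.20 to 5.46 in non-fluorescent cells, and 6 of 8 connective tissue markers, at 1.35 to 2.52 against 3.78 to 4.14. So were 3 of 4 red blood cell markers, at -2.32 to -0.02 against 1.23 to 4.10, and 4 of 5 muscle markers, at -0.71 to 0.21 against 1.09 to 2.18. The part of these cell types was not tested.

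Between the mantle populations, 3 genes were higher and 1 lower in mCherry+/GFP+ cells (median 0.30, all genes -0.10), with 5.82% of all genes called higher and 7.48% lower. As shares of the 45 genes, the higher count lies near that of all genes and the lower count below it. These calls, too, describe single genes. The G1 kinase gene cdk6 was at 2.74, 3.38, 3.08 and 2.30 in mCherry+/GFP+ cells and at 0.93, 0.90, 1.38, 1.34 and 1.74 in mCherry+ cells (1.62 ± 0.31). For cdc6 the mCherry+/GFP+ arrays were at 1.05, 0.98, 1.43 and 0.84 (1.16 ± 0.20). Neither gene overlapped between the populations. For MKI67 the mCherry+ arrays were at 1.75, 1.86, 2.25, 2.30 and 2.47, and 1 mCherry+/GFP+ array fell among them (1.00 ± 0.28). The lower gene was ccnd1 (-0.78 ± 0.17). The count was 2 without any one of mCherry+ replicates 1, 2, 4 and 5 or of mCherry+/GFP+ replicates 1 and 2. All 10 mantle and support cell markers were higher in mCherry+/GFP+ cells, at a mean of 4.36 to 4.88 against 2.09 to 2.76, and 7 of 8 connective tissue markers were lower, at 1.35 to 2.52 against 4.36 to 4.72. The part of these cell types was not tested.

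The levels of 8 genes were followed through all 12 groups, as means ± SD over the arrays of each group, with the numbers of arrays given at the start. Hair cells and treated cells lie in different array sets, so orders across them are descriptions. Mean pcna was 4.24 ± 0.15 in non-fluorescent, 3.90 ± 0.38 in mCherry+, 4.07 ± 0.45 in mCherry+/GFP+ and 2.48 ± 0.05 in hair cells. At 1, 3, 5 and 11 h it was 4.07 ± 0.31, 3.92 ± 0.39, 3.32 ± 0.18 and 4.59 ± 0.59 in treated non-fluorescent cells and 3.35 ± 0.55, 3.39 ± 0.28, 2.76 ± 0.25 and 4.09 ± 0.58 in treated mantle cells. Hair cells were lowest, and the mantle cells of 5 h came next. For ccnd1 the untreated means were 4.46 ± 0.16 in non-fluorescent, 4.13 ± 0.16 in mCherry+, 3.35 ± 0.35 in mCherry+/GFP+ and 1.75 ± 0.35 in hair cells. The treated means at these times were 4.73 ± 0.32, 4.20 ± 0.26, 3.68 ± 0.17 and 4.87 ± 0.30 in non-fluorescent cells and 3.78 ± 0.47, 3.96 ± 0.29, 4.36 ± 0.34 and 3.78 ± 0.55 in mantle cells. Hair cells stood apart at the low end, below mCherry+/GFP+ cells.

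Mean cdk1 was 1.09 ± 0.46 in non-fluorescent, 0.88 ± 0.55 in mCherry+, 1.46 ± 0.54 in mCherry+/GFP+ and -0.97 ± 0.14 in hair cells. After copper it was 1.23 ± 0.78, 1.58 ± 0.19, 1.06 ± 0.33 and 1.66 ± 1.36 in non-fluorescent cells and 0.63 ± 0.41, -0.16 ± 0.26, -0.17 ± 0.27 and 0.99 ± 0.55 in mantle cells. The mantle cells of 3 h and 5 h did not differ beyond their spread and came next above hair cells. The means of ccnb1 were 1.03 ± 0.23 in non-fluorescent, 0.86 ± 0.32 in mCherry+, 0.58 ± 0.93 in mCherry+/GFP+ and -0.87 ± 0.40 in hair cells, and after copper 1.12 ± 0.57, 2.05 ± 0.72, 1.13 ± 0.20 and 1.38 ± 0.25 in non-fluorescent and 1.62 ± 0.43, -0.14 ± 0.26, -0.04 ± 0.56 and 1.1 ± 0.58 in mantle cells. Its order at the low end was the same, while non-fluorescent cells of 3 h were highest. For top2a the untreated means were 1.55 ± 0.24 in non-fluorescent, 1.21 ± 0.28 in mCherry+, 1.78 ± 0.20 in mCherry+/GFP+ and -0.47 ± 0.01 in hair cells, and the treated ones 1.45 ± 0.52, 1.55 ± 0.37, 1.1 ± 0.47 and 1.18 ± 0.45 in non-fluorescent and 1.01 ± 0.62, 0.84 ± 0.10, 0.41 ± 0.21 and 0.99 ± 0.69 in mantle cells. Hair cells were lowest and mCherry+/GFP+ cells highest. Mean MKI67 was 2.96 ± 0.51 in non-fluorescent, 2.13 ± 0.31 in mCherry+, 3.12 ± 0.60 in mCherry+/GFP+ and 0.56 ± 0.04 in hair cells. After copper it was 3.19 ± 0.59, 4.12 ± 0.39, 3.38 ± 0.59 and 2.82 ± 0.64 in non-fluorescent cells and 1.97 ± 0.67, 0.53 ± 0.41, 0.88 ± 0.42 and 2.17 ± 0.65 in mantle cells, so that mantle cells of 3 h were as low as hair cells and non-fluorescent cells of 3 h were highest.

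The inhibitor genes took other courses. Mean cdkn1a was 1.83 ± 0.61 in non-fluorescent, 1.00 ± 0.49 in mCherry+, 1.91 ± 0.55 in mCherry+/GFP+ and 1.71 ± 0.26 in hair cells, and after copper 2.20 ± 0.46, 2.52 ± 0.63, 1.70 ± 0.64 and 3.03 ± 0.43 in non-fluorescent and 1.69 ± 0.31, 2.22 ± 0.29, 0.61 ± 0.72 and 2.10 ± 0.57 in mantle cells. The lowest mean was that of mantle cells at 5 h and the highest that of non-fluorescent cells at 11 h, and neighbours between them overlapped. Mean cdkn1bb was 5.00 ± 0.14 in non-fluorescent, 5.42 ± 0.08 in mCherry+, 5.70 ± 0.19 in mCherry+/GFP+ and 5.70 ± 0.07 in hair cells, and after copper 4.82 ± 0.14, 4.98 ± 0.07, 4.73 ± 0.14 and 4.54 ± 0.09 in non-fluorescent and 5.41 ± 0.08, 4.91 ± 0.31, 5.14 ± 0.11 and 5.02 ± 0.14 in mantle cells. Hair cells and mCherry+/GFP+ cells shared the highest mean, and non-fluorescent cells of 11 h had the lowest.

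**Figure D2:**
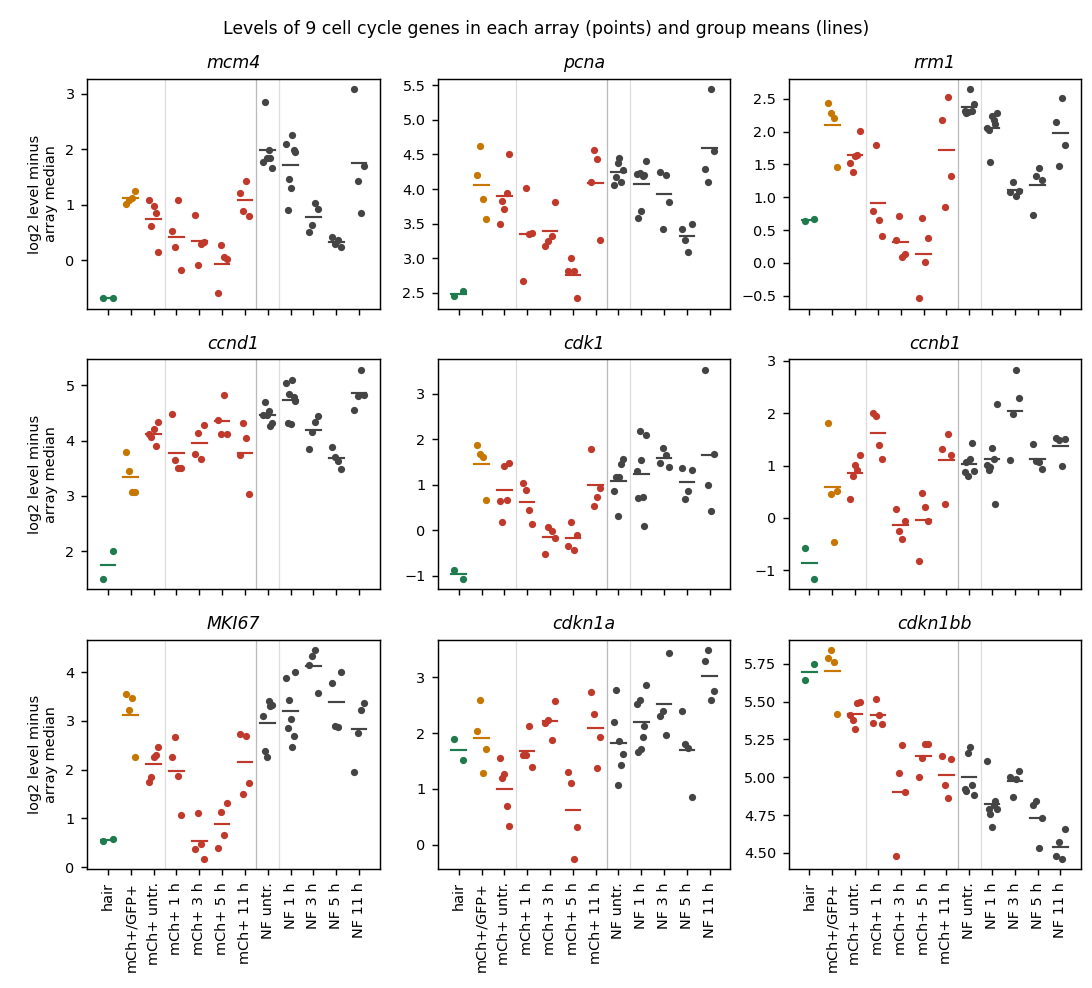
Log2 level minus the array median for 9 genes in each of the 52 arrays (points) with group means (lines). The groups are hair cells, mCherry+/GFP+ mantle cells, mCherry+ mantle cells (mCh+) and non-fluorescent cells (NF), the latter pair untreated and at 1, 3, 5 and 11 h after copper. The 2 hair cell arrays are lowest for mcm4, ccnd1 and cdk1, and ccnb1 drops in mantle cells between 1 h and 3 h.

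After copper, mean levels over the 45 genes were lowest at 5 h in both populations. In mCherry+ mantle cells they were 0.57 ± 0.24 at 1 h, 0.41 ± 0.08 at 3 h, 0.33 ± 0.16 at 5 h and 0.84 ± 0.28 at 11 h (SD, n = 4 each). In non-fluorescent cells they were 1.09 ± 0.23 at 1 h (n = 7), 1.02 ± 0.15 at 3 h, 0.72 ± 0.13 at 5 h and 1.08 ± 0.12 at 11 h (n = 4 each). The mantle arrays of 3 h (0.33 to 0.49) and 5 h (0.1 to 0.46) overlapped. Not every role was lowest at 5 h. In mantle cells the G1 and S mean was highest then, at 1.36 against 0.91 at 3 h. In non-fluorescent cells the G1 and S mean was lowest at 3 h and the G2 and M mean at 1 h. Few genes were called in 4 fits at any time, so the counts below are given under that rule and, as a second rule, in the fit with array medians set equal alone. In 4 fits no copper comparison called more than 1 of the 45 genes. Beside the shares of all genes given below, such counts do not set the list apart, and each call describes a single gene. Neither rule removes the earlier adjustment, so comparisons of 3 h or 5 h with 1 h or 11 h cannot tell time from it. The second rule treats the 3 h and 5 h arrays as free of each other, and the block in the first does not untie them. The block changed the size of the differences little and left fewer genes called.

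**Figure D3:**
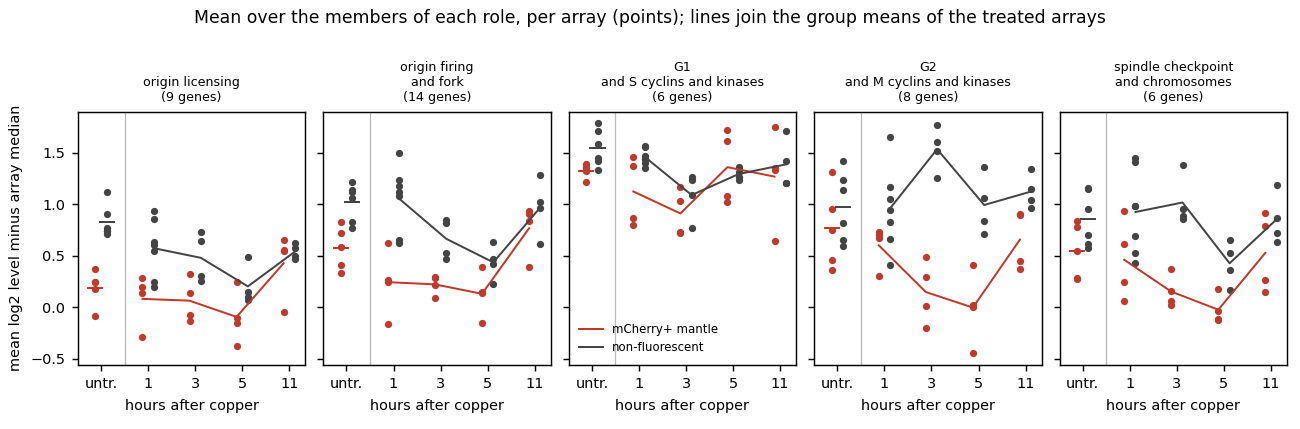
Mean log2 level minus the array median over the genes of each of 5 roles, in each array (points), for mCherry+ mantle cells (red) and non-fluorescent cells (grey), untreated and at 1, 3, 5 and 11 h after copper. Lines join the group means of the treated arrays. The G2 and M mean rises in non-fluorescent cells at 3 h, to 1.53, and falls in mantle cells, to 0.15.

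In mantle cells the G2 and M genes had medians below 0 at 3 h and 5 h against 1 h. Between 1 h and 3 h their median difference was -0.34, and between 1 h and 5 h -0.66. Called in 4 fits was ccnb1 alone, for the B cyclin that drives entry into mitosis. It was at 2.0, 1.95, 1.39 and 1.12 at 1 h, at 0.18, -0.25, -0.41 and -0.06 at 3 h, and at -0.82, 0.48, 0.21 and -0.05 at 5 h. No array of 3 h or 5 h reached the lowest array of 1 h. The difference was -1.75 ± 0.31 at 3 h (adjusted p = 0.000145, and 0.0224 with the block) and -1.66 ± 0.31 at 5 h (adjusted p = 0.000347, and 0.0382 with the block). At 11 h ccnb1 was at 1.32, 0.27, 1.61 and 1.21, and in untreated mantle cells at 0.36, 0.80, 1.02, 0.91 and 1.21.

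The count of 1 between 1 h and 3 h fell to 0 without replicate 1 or 2 of 1 h or replicate 4 of 3 h. That between 1 h and 5 h fell to 0 without replicate 1, 2 or 3 of 1 h or replicate 4 of 5 h. Here and below, leaving out replicate 4 of 3 h or of 5 h leaves that time with no array outside the block. The block term then rests on the other time alone, so such a loss does not show that a call leaned on the value of replicate 4. Of all genes, 1.94% were called at 3 h against 1 h and 1.47% at 5 h against 1 h. By the second rule, 3 genes were lower and 1 higher at 3 h, with 7.88% of all genes lower and 5.42% higher, and 3 were lower and 2 higher at 5 h, with 7.82% lower and 5.16% higher. The balance at 5 h turned with quantile normalization alone, where 1 was lower and 3 were higher. The proliferation marker MKI67 was among them. It was at 2.25, 2.67, 1.87 and 1.08 at 1 h, at 0.37, 1.11, 0.48 and 0.17 at 3 h, and at 0.40, 1.13, 0.67 and 1.31 at 5 h, where a few arrays crossed the lowest of 1 h. Its difference was -1.43 ± 0.36 at 3 h and -1.09 ± 0.36 at 5 h, with adjusted p = 0.134 and 0.306 under the block. The others in that fit were cdt1 (0.67 ± 0.21) and cdkn1bb (-0.50 ± 0.13) at 3 h, and pold1 (0.89 ± 0.31), ccne1 (1.06 ± 0.31) and cdkn1a (-1.07 ± 0.36) at 5 h.

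At 11 h against 1 h, 0 of 45 genes were called in mantle cells by limma under either rule, 8 had an unadjusted p below 0.05, as had 1755 of 19260 genes, and 0.0415% of all genes were called in 4 fits and 0.171% in the single fit. All 9 licensing and all 14 fork genes had positive differences, with medians of 0.24 and 0.47, and the lowest of these 23 was 0.02. The median of all genes was -0.03. Array means over each role overlapped between the times. They ran from -0.29 to 0.28 at 1 h and from -0.05 to 0.66 at 11 h for licensing. For the fork they ran from -0.16 to 0.63 and from 0.39 to 0.94. These are values and not calls.

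The interval from 5 h to 11 h was compared after the data had been seen. In mantle cells the gene called in 4 fits was rrm1, which was at -0.54, 0.68, 0.01 and 0.38 at 5 h and at 2.18, 0.85, 2.52 and 1.32 at 11 h (1.59 ± 0.27, adjusted p = 0.00014, and 0.0232 with the block). The 2 times did not overlap for rrm1. The count fell to 0 without replicate 4 of 5 h or replicate 1 or 3 of 11 h, and rose to 2 without replicate 4 of 11 h. Of all genes 1.46% were called. The second rule gave different counts: 10 genes were higher and 1 lower, with 6.68% of all genes higher and 5.61% lower. Among them were pcna, from 2.81, 3.01, 2.81 and 2.42 to 4.10, 4.56, 4.44 and 3.27 (1.33 ± 0.27), mcm4 (1.15 ± 0.32), MKI67 (1.29 ± 0.36), aurkb (1.31 ± 0.43), ccnb1 (1.15 ± 0.31) and cdkn1a (1.48 ± 0.36). The lower one was ccne1 (-0.95 ± 0.31). Under the block the nearest of these, pcna, had an adjusted p of 0.0567.

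Against untreated mantle cells, a comparison that crosses array sets, rrm1 at 5 h was called in 4 fits. The untreated arrays were at 1.52, 1.39, 1.63, 1.64 and 2.01, all above the 5 h arrays (-1.5 ± 0.26). The count of 1 fell to 0 without untreated replicate 1, 3, 4 or 5 or 5 h replicate 1, 3 or 4. Of all genes 0.701% were called at 5 h. At 1 h, 3 h and 11 h 0 of 45 genes were called by limma in 4 fits, with 0.436%, 1.87% and 2.25% of all genes called. An unadjusted p below 0.05 was found for 8, 16 and 6 of the 45 genes and for 2882, 5353 and 3253 of all 19260. The count rose to 1 without replicate 2 of 3 h and without replicate 4 of 11 h.

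With array medians set equal alone, untreated mantle cells and those of 1 h differed in 0 genes (1.18% of all genes). At 3 h, 7 were lower and 1 higher (7.02% and 7.49% of all genes), at 5 h 5 were lower and 1 higher (6.27% and 5.9%), and at 11 h cdkn1bb alone was lower (3.45% in either direction). With the deposited values alone, 2 genes were higher and 0 lower at 11 h. At 3 h these held rrm1 (-1.31 ± 0.26), cdk6 (-1.28 ± 0.38), ccnb1 (-1.0 ± 0.29), aurka (-0.94 ± 0.29), ttk (-0.86 ± 0.26), MKI67 (-1.59 ± 0.34) and cdkn1bb (-0.52 ± 0.12), with cdkn1a higher (1.22 ± 0.34). The cdkn1a arrays were at 2.19, 2.24, 1.87 and 2.58 at 3 h and at 1.55, 1.19, 1.26, 0.69 and 0.33 in untreated cells. At 5 h cdkn1a was at 1.30, 1.1, -0.26 and 0.32.

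Keratinocyte markers moved with the mantle groups. Their mean was 1.07 to 2.03 in untreated mantle cells, 1.59 to 2.61 at 1 h, 2.48 to 4.20 at 3 h, 1.43 to 3.68 at 5 h and 2.14 to 2.91 at 11 h, and 5 of 8 were higher at 3 h than in untreated cells with array medians set equal alone. The mean of the mantle and support markers was 2.32 to 2.98 at 1 h and 1.51 to 2.03 at 3 h. At 1, 3, 5 and 11 h the group means of red blood cell markers were -1.41, -0.46, -0.42 and -1.48. Those of leukocyte markers were -0.96, -0.35, -0.41 and -0.78, and those of muscle markers -0.39, 0.03, 0.06 and -0.67. Pigment cell markers were at -0.99, -0.71, -0.6 and -0.83, and connective tissue markers at 4.24, 4.14, 4.11 and 4.07. The part of these cell types in the changes of ccnb1, MKI67 and rrm1 was not tested.

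Non-fluorescent skin cells and mantle cells differed in their change from 1 h to 3 h for ccnb1 alone in 4 fits, as given below. In non-fluorescent cells the G2 and M genes had a median of 0.52 at 3 h against 1 h, while licensing and fork genes had -0.29 and -0.35. Called in 4 fits was aurkb, whose kinase acts at chromosomes and in the splitting of the daughter cells. It ran from 1.06 through 1.43 to 2.15 at 1 h and was at 2.56, 2.98, 4.16 and 3.67 at 3 h, with no overlap (1.91 ± 0.38, adjusted p = 0.000371, and 0.0354 with the block). At 5 h aurkb was at 3.12, 2.09, 2.04 and 2.06, and at 11 h at 3.56, 1.63, 2.51 and 1.84. The call of aurkb was lost without replicate 1 of 1 h or replicate 3 or 4 of 3 h, and the count rose to 2 without replicate 2 or 4 of 1 h. Of all genes 4.28% were called.

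With array medians set equal alone, 4 genes were higher and 9 lower in non-fluorescent cells at 3 h than at 1 h, with 13% of all genes higher and 9.47% lower. Besides aurkb the higher ones were ccnb1 (0.93 ± 0.27), cdc20 (1.15 ± 0.33) and MKI67 (0.93 ± 0.32). The lower ones were mcm4 (-0.94 ± 0.28), cdc6 (-0.71 ± 0.26), gins1 (-0.96 ± 0.31), pola1 (-0.69 ± 0.25), lig1 (-1.34 ± 0.31), fen1 (-0.77 ± 0.25), rrm1 (-0.95 ± 0.24), ccnd1 (-0.53 ± 0.20) and cdk2 (-1.04 ± 0.34). With quantile normalization alone, 6 genes were higher and 6 lower. The rrm1 arrays were at 1.08, 1.23, 1.02 and 1.1 at 3 h, all below the 7 arrays of 1 h, which ran from 1.54 through 2.11 to 2.28.

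At 5 h against 1 h, ccnd1 was the gene called in 4 fits. It ran from 4.30 through 4.78 to 5.10 at 1 h and was at 3.89, 3.70, 3.63 and 3.48 at 5 h (-1.05 ± 0.20, adjusted p = 0.000216, and 0.0380 with the block). All 5 h arrays lay below all 1 h arrays. The call of ccnd1 was lost without replicate 1 or 5 of 1 h or replicate 3 or 4 of 5 h. The count rose to 2 without replicate 3 or 6 of 1 h or replicate 4 of 5 h, and to 3 without replicate 2 or 4 of 1 h. With the mean of both ccnd1 probe sets in place of the brighter one, the count was 0. Of all genes 3.35% were called. By the second rule 12 genes were lower and 0 higher, with 8.98% of all genes lower and 12.2% higher.

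Of these 12, 7 belong to the fork, where 13 of 14 genes had negative differences at 5 h (median -0.61). The largest of the 12 were lig1 (-1.5 ± 0.31), mcm4 (-1.39 ± 0.28), rpa2 (-1.3 ± 0.38), ttk (-1.21 ± 0.25) and pola1 (-1.06 ± 0.25). The licensing gene mcm4 ran from 0.91 through 1.96 to 2.25 at 1 h and was at 0.41, 0.29, 0.36 and 0.23 at 5 h. Its arrays did not overlap, and its adjusted p under the block was 0.0512. The clamp gene pcna ran from 3.58 through 4.21 to 4.40 at 1 h and was at 3.42, 3.26, 3.09 and 3.49 at 5 h (-0.76 ± 0.24). Keratinocyte markers in non-fluorescent cells had a mean of 3.19 to 6.82 at 1 h, 4.55 to 5.22 at 3 h and 5.09 to 5.30 at 5 h, and leukocyte markers one of -1.59 to 1.41, 0.14 to 1.56 and -0.13 to 0.71, and their part in these results was not tested.

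At 11 h against 1 h, 0 genes were called by limma under either rule, with 7 of 45, and 3360 of all 19260, at an unadjusted p below 0.05 (1.29% of all genes in 4 fits, 2.17% in the single fit). The count in 4 fits rose to 1 without replicate 2 of 1 h. From 5 h to 11 h, again compared after the data had been seen, ccnd1 was called in 4 fits, with 4.55, 4.81, 5.28 and 4.82 at 11 h (1.19 ± 0.23, adjusted p = 0.000438, and 0.0424 with the block). The call of ccnd1 was lost without replicate 2, 3 or 4 of 5 h or replicate 2, 3 or 4 of 11 h. Of all genes 1.49% were called. Under the second rule 11 genes were higher and 1, cdk4, lower, with 5.51% of all genes higher and 5.88% lower. Among the higher ones were rpa2 (1.79 ± 0.43), mcm4 (1.44 ± 0.32), pcna (1.28 ± 0.27), fen1 (1.23 ± 0.28) and cdkn1a (1.33 ± 0.36).

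The comparisons with untreated non-fluorescent cells cross array sets, and setting array medians equal moved the median of all genes by more than 0.1, from 0.17 to -0.02 at 1 h, where the share of higher calls went from 91.8% to 48.3%. In 4 fits rrm1 was lower at 3 h (-1.27 ± 0.25), mcm4 was lower at 5 h (-1.67 ± 0.29) and cdkn1a was higher at 11 h (1.2 ± 0.33), with 2.63%, 0.732% and 2.12% of all genes called. The rrm1 arrays of untreated cells ran from 2.28 through 2.32 to 2.64, above all of 3 h, and the mcm4 arrays of untreated and 5 h cells, given above, did not overlap either. The cdkn1a arrays ran from 1.07 through 1.74 to 2.78 in untreated cells and were at 3.29, 3.49, 2.59 and 2.75 at 11 h, which overlap. At 1 h 0 genes were called in 4 fits by limma, with 4 of 45, and 3856 of all 19260, at an unadjusted p below 0.05 and 2.65% of all genes called.

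Each of these single calls depended on the arrays. The call of rrm1 at 3 h was lost without any one array of either group. The call of mcm4 at 5 h was lost without untreated replicate 2, 4 or 5 or any one replicate of 5 h. The call of cdkn1a at 11 h was lost without untreated replicate 3, 4, 5 or 6 or replicate 1 or 2 of 11 h, and the count rose to 2 without untreated replicate 1 or replicate 3 of 11 h. By the second rule 0 genes differed at 1 h (4.98% of all genes), 4 were higher and 7 lower at 3 h (10.8% and 8.42%), 0 higher and 11 lower at 5 h (6.94% and 4.73%), and 1 higher and 2 lower at 11 h (3.21% in either direction). The deposited values alone gave 4 higher and 4 lower at 3 h, and 3 higher and 1 lower at 11 h. The inhibitor gene cdkn1bb was among the lower ones at 11 h (-0.46 ± 0.12), at 4.48, 4.57, 4.46 and 4.66.

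**Figure D4:**
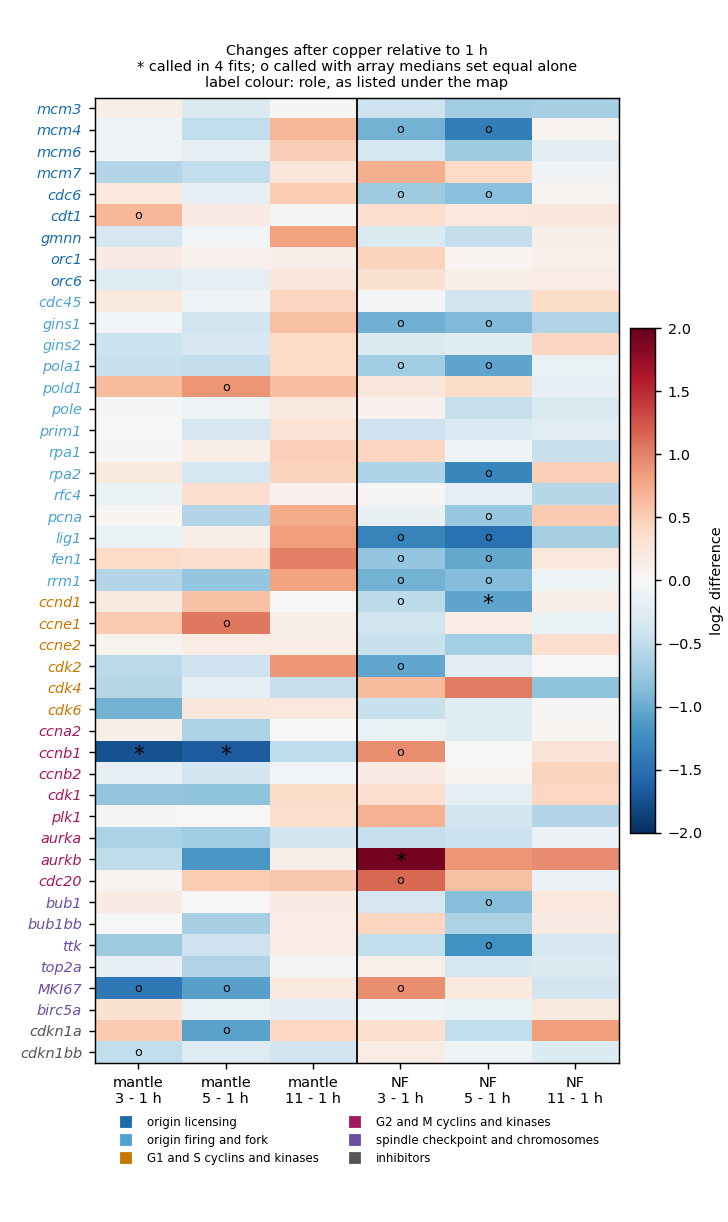
Log2 difference of each of the 45 genes from its level at 1 h after copper, at 3, 5 and 11 h, in mCherry+ mantle cells (left, n = 4 at each time) and non-fluorescent cells (right, n = 7 at 1 h and 4 at the other times). Stars mark calls in 4 fits, circles calls with array medians set equal alone, and gene names are coloured by role. In the 3 h columns ccnb1 and MKI67 are blue in mantle cells (-1.75 and -1.43) and red in non-fluorescent cells (0.93 and 0.93).

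The change from 1 h was then compared between the populations. At 3 h, ccnb1 was called in 4 fits, the mantle change minus the non-fluorescent change being -2.69 ± 0.41 (adjusted p = 4.06e-05, and 0.0178 with the block). In non-fluorescent cells ccnb1 ran from 0.27 through 1.02 to 2.18 at 1 h and was at 1.11, 1.98, 2.83 and 2.29 at 3 h, so the mantle arrays fell while most non-fluorescent arrays of 3 h were high. The call was lost without replicate 4 of 3 h of either population, and the count rose to 2 without mantle replicate 4 of 1 h. Of all genes 0.784% were called. With array medians set equal alone, 1 gene was higher and 5 lower, with 12.7% of all genes called in either direction. The lower ones included MKI67 (-2.36 ± 0.48) and aurkb (-2.41 ± 0.58), with adjusted p = 0.0761 and 0.136 under the block, and mcm7 (-1.31 ± 0.44) and cdkn1bb (-0.65 ± 0.17). The higher one was fen1 (1.16 ± 0.37).

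At 5 h, 0 genes were called in 4 fits by limma, with 10 of 45, and 4777 of all 19260, at an unadjusted p below 0.05 and 0.28% of all genes called. The count rose to 1 without non-fluorescent replicate 2 of 1 h, mantle replicate 1 of 1 h or mantle replicate 4 of 5 h. With array medians set equal alone, ccnd1 (1.63 ± 0.30), lig1 (1.63 ± 0.47) and fen1 (1.36 ± 0.37) were higher and ccnb1 (-1.67 ± 0.41) and aurkb (-2.05 ± 0.58) lower, with 10.5% of all genes called in either direction. The D cyclin gene ccnd1 was at 4.38, 4.12, 4.83 and 4.11 in mantle cells at 5 h and at 4.48, 3.64, 3.51 and 3.50 at 1 h, where 1 array stood apart. Its own difference there, 0.58 ± 0.23, was not called, against -1.05 in non-fluorescent cells. At 11 h, 0 genes were called by limma under either rule, as were 0% of all genes, with 6 of 45, and 1874 of all 19260, at an unadjusted p below 0.05.

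Few companion genes passed the 4 fits after copper. In mantle cells the histone chaperone gene asf1bb was lower than at 1 h by -2.26 ± 0.32 at 3 h and -1.79 ± 0.32 at 5 h, and the clamp loader gene rfc3 was higher by 2.16 ± 0.29 and 1.87 ± 0.29. At 5 h tfdp1a, a partner of E2F factors (-1.74 ± 0.27), and cenph, a centromere gene (-1.59 ± 0.29), were lower as well. In non-fluorescent cells at 3 h the cytokinesis gene racgap1 (2.06 ± 0.42) and the p53 and checkpoint genes phlda3 (1.58 ± 0.28) and rad1 (1.58 ± 0.24) were higher, and the clamp loader gene rfc2 (-2.22 ± 0.41) and gadd45ba (-1.44 ± 0.30) were lower. At 5 h ccnd2b, another D cyclin gene (-2.10 ± 0.34), mycb (-1.90 ± 0.36) and atm (-1.28 ± 0.22) were lower and the condensin gene ncapd3 (0.98 ± 0.19) was higher. At 3 h the change differed between mantle and non-fluorescent cells for rfc2 (3.35 ± 0.62) and rfc3 (2.35 ± 0.38).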

How the data were processed

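The deposited values are log2 signals of 75212 probe sets on 52 arrays, made by the authors with Partek 6.6 and RMA, per the submitters' processing notes. The log base was taken from the range of the values, -1.29 to 15.05. The authors left out a few samples after principal component analysis, per the series' design text. Of the probe sets, 20806 had 1 gene symbol, 855 several and 53551 none here, and the probe set with the highest mean stood for each of 1365 genes with more than 1, which left 19260 genes. Of 45 measured members 44 were matched to RefSeq names by Entrez ID, and MKI67 had none. ccnd1 and cdkn1bb had 2 probe sets.

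From these values limma 3.58.1 (R 4.3.3, data.table version 1.17.8) fitted 17 untreated arrays and 42 arrays of the copper series, with Benjamini-Hochberg adjustment over all genes of a comparison. The fits were checked on simulated data for mCherry+/GFP+ against non-fluorescent cells and for mantle cells at 11 h against 1 h. The simulated arrays were not tied to each other, and the comparisons of 3 h and 5 h were not checked in this way. Figures used matplotlib 3.10.9 and pandas 2.3.3. An adjustment before deposit was found in the values: within the treated sets a linear combination of arrays is constant to a singular value of 0.00137 (non-fluorescent) and 0.0013 (mantle), against 86 and 97.6 for the next, while untreated arrays gave 10.4 and 65.3. It involves replicates 1 to 3 of 3 h and 5 h. Deviations of replicate 4 from its group mean correlated at -1 between 3 h and 5 h in both populations. Results at 3 h and 5 h are thus tied to each other, also under the block. Comparisons of either time with 1 h or 11 h cannot tell time from the adjustment.

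The members, the 152 of 172 measured companion genes and the marker lists were chosen with earlier results of these data known. Any member could be named. Values by array were due for up to 4 called genes per direction and comparison, and levels in all groups for pcna, mcm2 (not measured), ccnd1, cdk1, ccnb1, top2a, MKI67, cdkn1a and cdkn1bb. From each companion list up to 3 called genes per direction were eligible. Alternatives were the 4 fits alone, a replicate block, a filter on dim genes, limma with trend and robust settings, the mean of probe sets, an adjusted p below 0.01 and leaving out each array. Promoters and sequences were not used here.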

Additional observations from a re-analysis of the deposited data

Results flagged for a closer look

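In 3 of 99 groups tested, over these genes and groups of 4 to 10 arrays, 1 array lay far from the rest by Dixon's test, which chance gives in about 1 of 20. The level of ccnd1 in mantle cells at 1 h was 4.48 in replicate 1 and 3.50 to 3.64 in the others. The level of ccnb1 in non-fluorescent cells at 11 h was 1 in replicate 3 and 1.49 to 1.52 in the others. The level of cdkn1bb in non-fluorescent cells at 1 h was 5.11 in replicate 1 and 4.67 to 4.84 in the others.

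The change of ccnb1 from 1 h to 3 h differed between populations by -2.69 (mantle minus non-fluorescent) in limma's test of the difference.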

How the results depend on the processing

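Counts of called genes depended on the rule. In the order mCherry+ against non-fluorescent, mCherry+/GFP+ against non-fluorescent, and mCherry+/GFP+ against mCherry+, they were 13, 7 and 9 with array medians set equal alone, 16, 8 and 9 with deposited values alone and 15, 7 and 7 with quantile normalization alone. In treated mantle cells against untreated at 3, 5 and 11 h, then against 1 h at 3 and 5 h, then 11 h against 5 h, they were 8, 6, 1, 4, 5 and 11 with medians equal, 8, 6, 2, 4, 5 and 13 as deposited, and 9, 6, 1, 3, 4 and 10 with quantiles. In non-fluorescent cells in that order they were 11, 11, 3, 13, 12 and 12, then 8, 9, 4, 12, 13 and 12, then 10, 12, 4, 12, 12 and 12, and 2 at 1 h against untreated as deposited. For the difference between populations at 3 h and 5 h they were 6 and 5, then 5 and 5, then 5 and 5. The adjustment block alone gave 2 in non-fluorescent cells at 11 h against untreated.

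No pairing by replicate number was found by the rule used: in 0 of 66 pairs of groups were all same-number correlations above 0.1. The rule is strict and the values were adjusted before deposit, so pairing is not excluded. For untreated non-fluorescent and mCherry+ cells, replicates 1 to 5 correlated at 0.275, 0.129, -0.025, 0.084 and 0.262. A replicate block gave 12 for hair cells against mCherry+ cells, 4, 2 and 2 for the other untreated comparisons in the order above, and 0 for mantle cells at 5 h against untreated and against 1 h, for non-fluorescent cells at 3, 5 and 11 h against untreated and at 3 and 5 h against 1 h, and for 11 h against 5 h in both. An adjusted p below 0.01 gave 4, 1 and 2 for those untreated comparisons and 0 for every copper comparison. Leaving out dim genes gave 1 in mantle cells at 3 h against untreated and 2 in non-fluorescent cells at 5 h against 1 h. Trend and robust settings gave 0 and 2 in non-fluorescent cells at 3 h and 11 h against untreated. The mean of probe sets gave 0 in non-fluorescent cells at 5 h against 1 h and 1 for the difference at 5 h. The cause of these moves was not tested. Other alternatives kept these counts within 1.5 times, and 0 of 49 named gene results reversed under any.

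Leaving out 1 array gave 23 to 33, 11 to 22 and 20 to 31 for hair cells against non-fluorescent, mCherry+ and mCherry+/GFP+ cells, and 4 to 11, 3 to 7 and 2 to 5 for the other untreated comparisons. For mantle cells it gave 0 to 1 at 3, 5 and 11 h against untreated and at 3 and 5 h against 1 h, and 0 to 2 for 11 h against 5 h. For non-fluorescent cells it gave 0 to 1 at 3 and 5 h against untreated, 0 to 2 at 11 h, 0 to 2 and 0 to 3 at 3 and 5 h against 1 h, and 0 to 1 at 11 h against 1 h and 5 h. For the difference it gave 0 to 2 at 3 h and 0 to 1 at 5 h.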
